A study of Mus musculus with 12 samples.

Results

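The genes for the proteins of the mitochondrial ribosome were taken as all protein-coding mouse genes whose symbol is Mrpl or Mrps followed by a digit. These were 78 of 21900 protein-coding genes of RefSeq on the mouse build GRCm38.p6, spread over 17 chromosomes, with 49 named for the large subunit (Mrpl) and 29 for the small subunit (Mrps). A further 6 pseudogenes with such symbols were left out. The mitochondrial ribosome translates the few proteins that mitochondrial DNA encodes, all of them subunits of the respiratory chain and ATP synthase. Its own proteins are encoded in the nucleus, made in the cytosol and imported, so the ribosome depends on many scattered nuclear genes. Dimethylation of histone H3 at lysine 79 (H3K79me2) is set by the methyltransferase DOT1L and lies over the first part of transcribed genes.

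H3K79me2 was profiled by chromatin immunoprecipitation and sequencing in CD8 T cells of male mice, from a strain written CreERT2;DOT1L-flox;OT-I with the genotype wt;wt;het, which every group shared. Read in that order, the genotype stands for no Cre, no floxed allele and a single copy of OT-I, a T cell receptor transgene. The cells were activated through CD3 and CD28 on day 0 and grown to day 8 with fresh treatment every 2 days, either the vehicle DMSO at 0.1% or one of the DOT1L inhibitors EPZ-5676 and SGC-0946, whose dose is labelled 10 mM, a doubtful unit. Each treatment had 2 biological replicates, each with an immunoprecipitate and an input library (12 libraries in all, with a yeast chromatin spike-in), and each treatment is represented by 1 list of broad peaks (the DMSO list, the EPZ list and the SGC list). In that order they held 12578, 4443 and 55 peaks and covered 68.4, 18.1 and 0.138 Mb. With 1 list per treatment no spread between replicates could be measured, and nothing was tested. The exact binomial 95% intervals cover the counting of genes only. Read depth is unknown, so a gene without a peak is one where none was called. The CD8 chain genes Cd8a and Cd8b1 and the general T cell genes Cd3d, Cd3e, Cd3g, Lck, Cd2 and Cd5, 8 in all, each had a DMSO peak. Markers of CD4 T cells (0 of 3), myeloid cells (0 of 5) and natural killer cells (0 of 2) had none, and of 4 B cell markers Cd79a alone had one, through 254 bases. Peaks are of bulk chromatin, in which fewer marked cells and less mark per cell cannot be told apart.

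Promoter sequences were available for 69 of the 78 genes. The stretches just upstream of 3 starts are shown, all of genes with an EPZ peak. Mrpl12 had the highest DMSO peak of the family, and Mrpl17 and Mrpl10 carry the 8-letter form of the NRF1 motif, CGCATGCG, in capitals. The EPZ peak of Mrpl10 was the lowest of the family, at 2.76-fold. NRF1 is a transcription factor known for activating nuclear genes of mitochondrial proteins. Each run is the 150 bases before the listed start, written 5′ to 3′ on the gene's strand (RefSeq, GRCm38.p6): Mrpl12 at chr11:120484487-120484636, plus strand, Mrpl17 at chr7:105811088-105811237, minus strand, and Mrpl10 at chr11:97041432-97041581, plus strand.
Mrpl12: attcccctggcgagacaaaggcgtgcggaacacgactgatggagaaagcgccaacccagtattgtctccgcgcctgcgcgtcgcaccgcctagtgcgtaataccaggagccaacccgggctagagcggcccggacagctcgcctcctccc
Mrpl17: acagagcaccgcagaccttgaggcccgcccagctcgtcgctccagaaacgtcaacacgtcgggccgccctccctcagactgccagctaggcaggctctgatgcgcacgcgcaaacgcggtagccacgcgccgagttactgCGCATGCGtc
Mrpl10: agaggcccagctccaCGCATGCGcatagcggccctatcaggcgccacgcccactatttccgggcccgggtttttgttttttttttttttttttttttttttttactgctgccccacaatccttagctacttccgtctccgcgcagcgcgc
Many of the genes start head to head with a neighbour. The whole stretch between the starts is shown for 3 such pairs, on the strand of the gene named first, because their peaks and those of the neighbour are hard to separate: Mrpl32 and Psma2 at chr13:14613038-14613241, minus strand, Mrpl49 and Fau at chr19:6057756-6057946, minus strand, and Mrpl46 and Mrps11 at chr7:78783090-78783130, minus strand. None of the stretches lies inside an annotated gene, and the capitals again mark CGCATGCG.
Mrpl32-Psma2: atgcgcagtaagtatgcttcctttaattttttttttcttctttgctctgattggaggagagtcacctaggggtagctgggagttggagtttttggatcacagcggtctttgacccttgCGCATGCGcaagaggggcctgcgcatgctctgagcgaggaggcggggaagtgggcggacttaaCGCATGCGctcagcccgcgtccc
Mrpl49-Fau: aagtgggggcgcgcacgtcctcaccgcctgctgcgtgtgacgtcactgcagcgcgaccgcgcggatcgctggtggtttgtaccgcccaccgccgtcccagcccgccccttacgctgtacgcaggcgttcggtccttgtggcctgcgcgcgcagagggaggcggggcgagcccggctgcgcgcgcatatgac
Mrpl46-Mrps11: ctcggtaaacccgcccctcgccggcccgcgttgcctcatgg

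Under DMSO most of the family was marked, with weak and short peaks. At least 1 base of a DMSO peak lay in 68 of the 78 genes (87.2%, interval 77.7 to 93.7%), against 34.5% of all protein-coding genes (7563 of 21900). The share depends on weak peaks: with peaks of a −log10 q of at least 5 only, 17 of 78 genes were marked (21.8%), near the 17.3% of all protein-coding genes, and with peaks of at least 4-fold enrichment 26 were (33.3%), against 21.2%. The strength of a gene was read as the highest fold enrichment over background of any DMSO peak in it, the authors' value for the whole peak. It ranged from 2.64 to 7.32 with a median of 3.61 (quartiles 3.1 and 4.37), against 4.47 (3.53 and 5.99) over all marked protein-coding genes, of which 27.7% lay below the family's median. The median −log10 q was 2.91, against 5.01. A single peak was called in 63 of the 68 genes, and 5 had 2 peaks. The peaks covered a median of 1777 bases of a gene (quartiles 1026 and 2875, range 245 to 8075), against 4100 bases over all marked genes. The genes themselves were shorter, 7447 against 23402 bases in the median, and the covered share of the gene was close, 24.2% against 23.7%.

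With EPZ-5676, 12 of the 68 marked genes had an EPZ peak (17.6%, interval 9.47 to 28.8%), against 46.1% of all marked protein-coding genes (3486 of 7563). No gene of the family, and no protein-coding gene at all, had an EPZ peak without a DMSO peak. With SGC-0946 none of the 78 genes had a peak, against 0.142% of all protein-coding genes (31 of 21900), so the count is near the background. The difference between the EPZ and SGC lists was not tested.

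**Figure D1:**
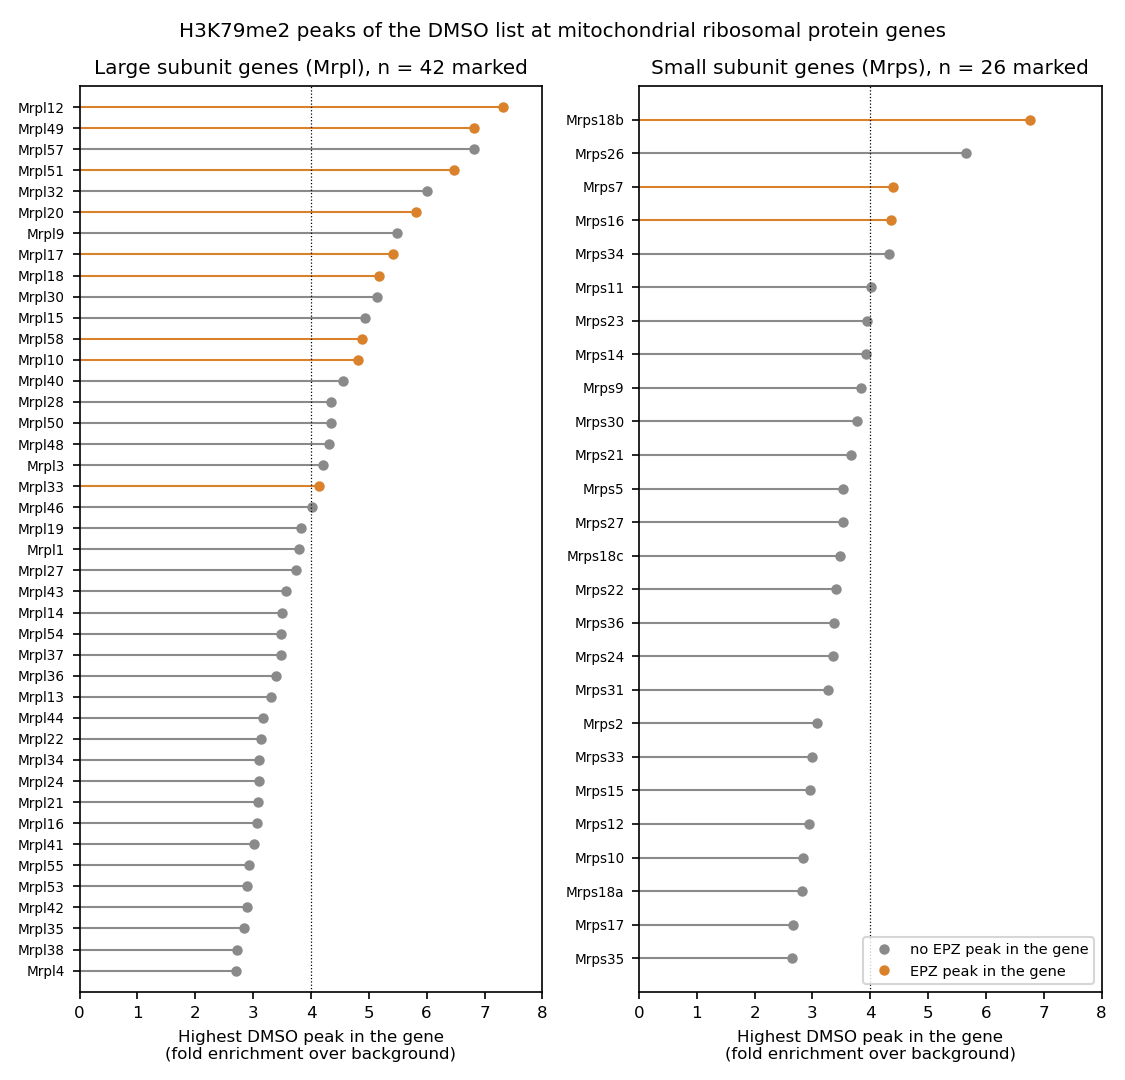
Highest fold enrichment over background of a DMSO peak in each marked gene (x axis) for 42 large and 26 small subunit genes, with genes that also had an EPZ peak in orange and the rest in grey. All 12 orange genes lie to the right of the dotted line at 4-fold, from 4.13 to 7.32, and the lowest gene, Mrps35, is at 2.64.

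Among the genes with Mrpl symbols, counted here as large subunit genes, 42 of 49 were marked (85.7%), with a median of 3.81-fold, and 9 of the 42 had an EPZ peak (21.4%, interval 10.3 to 36.8%). Mrpl12, whose protein forms the flexible stalk of the subunit and also binds mitochondrial RNA polymerase, had the strongest DMSO peak of the family at 7.32-fold, over 2798 bases of the gene. Its EPZ peak was 3.87-fold within the EPZ list and covered 1583 bases, 56.6% of the DMSO peak bases, and the SGC list held none. Both peaks reached across the start, the DMSO peak from 138 bases before to 2797 bases after it and the EPZ peak from 29 before to 1582 after it. Mrpl20 had a 5.81-fold DMSO peak and 3191 DMSO bases, and had the largest share in the EPZ list, 1967 bases or 61.6%, in a 3.30-fold EPZ peak. Mrpl49 had 6.82-fold and 2786 bases under DMSO, and 4.54-fold and 1628 bases (58.4%) in the EPZ list. These 3 genes were those in which EPZ peaks covered at least 50% of the DMSO bases.

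In the other large subunit genes with an EPZ peak, that peak covered less of the DMSO bases. Mrpl58, also known as ICT1, a peptidyl-tRNA hydrolase that frees stalled ribosomes, had 2 DMSO peaks that together covered 3105 bases, the higher of 4.88-fold, and a 2.93-fold EPZ peak over 1346 bases (43.3%). Mrpl18 had 5.17-fold in both lists, with 4775 DMSO and 1421 EPZ bases (29.8%). Mrpl17 had 5.41-fold over 1246 bases and 4.30-fold over 366 bases (29.4%), the smallest EPZ extent of the family. Mrpl51 had 6.47-fold over 2193 bases, its whole length, and 2.85-fold over 592 bases (27.0%). Mrpl33 had 4.13-fold over 7327 bases and 3.37-fold over 836 bases (11.4%), and Mrpl10, whose protein anchors the stalk, had 4.82-fold over 3925 bases and 2.76-fold over 407 bases (10.4%). In these 6 genes the EPZ peak covered from 10.4 to 43.3% of the DMSO bases. The gene with the highest peak was Mrpl12 in the DMSO list and Mrps18b in the EPZ list.

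Among the genes with Mrps symbols, counted here as small subunit genes although a few of their proteins sit in the large subunit, 26 of 29 were marked (89.7%), with a median of 3.5-fold, and 3 of the 26 had an EPZ peak (11.5%, interval 2.45 to 30.2%). The intervals of the EPZ shares of these symbol groups overlap, and their difference was not tested. Mrps18b stood highest at 6.76-fold over 3802 bases, and had the highest EPZ peak of the family at 6.29-fold, over 1520 bases (40.0%). Mrps7, for a protein of the small subunit's head, had 4.40-fold over its whole 3897 bases and a 2.92-fold EPZ peak over 530 bases (13.6%). Mrps16 had 4.36-fold over 1945 bases and 2.98-fold over 429 bases (22.1%). Across the 12 genes with both peaks the EPZ bases came to a median of 29.6% of the DMSO bases (quartiles 19.9 and 46.7%, 95% interval of the median 13.6 to 56.6%), against 34.4% over all genes with both, which lies inside the interval. The order of these medians was reversed with at least 500 bases of overlap (40% against 37.3%) and with each peak given to 1 gene (36.4% against 33.9%). Under the other alternatives given below the family's median was the lower. The gap was widest in a window from 1 kb before to 2 kb after the start (33% against 68.2%). The EPZ fold enrichments of the 12 genes had a median of 3.33, against 4.09 over all genes with both peaks.

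**Figure D2:**
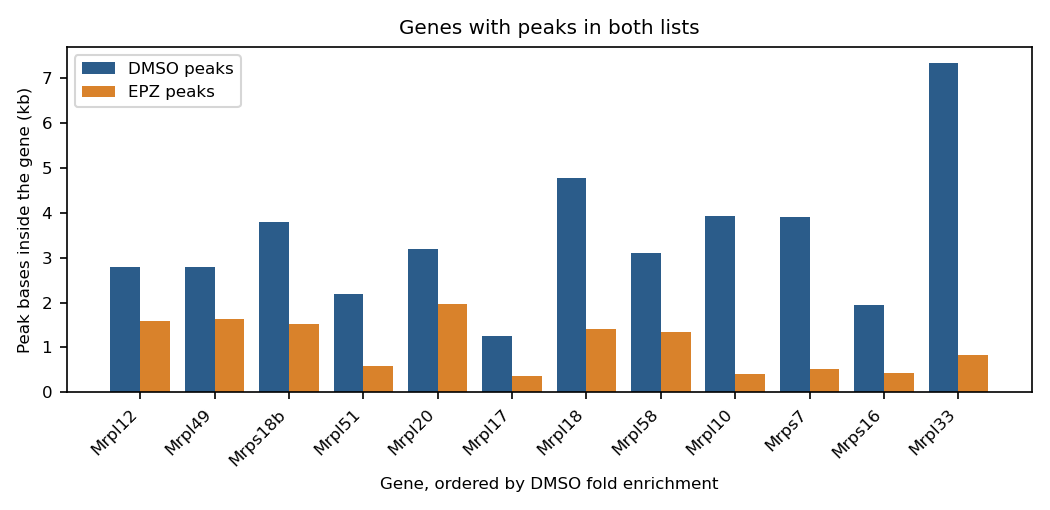
Bases of DMSO peaks (blue) and EPZ peaks (orange) inside each of the 12 genes with peaks in both lists, in kb, ordered by DMSO fold enrichment. EPZ bases run from 366 in Mrpl17 to 1967 in Mrpl20, below the DMSO bases in every gene.

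The Mrps18 paralogues, 3 genes whose proteins are alike and occupy different places in the ribosome, showed the range of the family. Mrps18b was marked at 6.76-fold with an EPZ peak. Mrps18c had a DMSO peak of 3.47-fold over 3622 bases and none in the other lists. Mrps18a, whose protein sits in the large subunit despite its symbol, had 2 DMSO peaks over 2934 bases of the gene, and none in the other lists. The higher of them, of 2.82-fold, lay 3673 to 5669 bases after the start. The lowest DMSO peaks of all were those of Mrps35 (2.64-fold), Mrps17 (2.67-fold), Mrpl4 (2.70-fold) and Mrpl38 (2.72-fold), with Mrps18a next. The most DMSO peak bases lay in Mrpl1 (8075 bases in 2 peaks, 3.79-fold), Mrpl33 (7327), Mrps9 (5210, 3.84-fold), Mrpl50 (4910, 4.34-fold) and Mrpl18 (4775). Of these 5 wide genes, Mrpl33 and Mrpl18 had an EPZ peak.

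Of the 10 genes without a DMSO peak, 7 are of the large and 3 of the small subunit. Mrpl11 and Mrpl2, for proteins of the factor-binding and catalytic centres, lay 34.1 and 20.9 kb from the nearest DMSO peak. Mrpl45, whose protein ties the ribosome to the inner membrane, lay 33.2 kb away, Mrpl23 48.3 kb, Mrpl52 34.6 kb and Mrpl39 6.47 kb. Among the small subunit genes Mrps25 lay 29.6 kb, Mrps6 127 kb and Mrps28 481 kb from a DMSO peak. Mrpl47 was the exception in distance, 0.331 kb from one, and it starts head to head with Ndufb5, a gene for a complex I subunit, at 307 bases. No member of this group had an EPZ or SGC peak.

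EPZ peaks were found only toward the strong end of the family. None of the 42 genes with a DMSO peak under 4-fold had one (interval 0 to 8.41%), against 3.54% of all marked genes in that range (103 of 2913). From 4-fold upward 12 of 26 did (46.2%, interval 26.6 to 66.6%), against 72.8% of all marked genes (3383 of 4650). In steps, the family's share was 35.7% at 4 to 5-fold (5 of 14), 50% at 5 to 6-fold (3 of 6) and 66.7% from 6-fold (4 of 6), and that of all marked genes was 44.9%, 81.2% and 92.5%. Genes under 4-fold made up 61.8% of the marked family and 38.5% of all marked genes. Short peaks also carried fewer EPZ peaks: 0 of 16 genes with under 1000 DMSO bases, 2 of 26 with 1000 to 2000 (7.69%), 8 of 20 with 2000 to 4000 (40%) and 2 of 6 with 4000 or more (33.3%), against 3.44%, 11.6%, 35.8% and 71% of all marked genes. A common range of both was at least 4-fold and 1000 to 4000 DMSO bases. There 10 of 21 genes of the family (47.6%, interval 25.7 to 70.2%) had an EPZ peak, against 51.2% of all marked genes (704 of 1375). The genome's share lies inside the family's interval there. At 5-fold and above with any number of bases, 7 of 12 genes of the family had one (58.3%, interval 27.7 to 84.8%), and the 88.4% of all marked genes lies above that interval. At 5-fold and above with 1000 to 4000 bases, the shares were 6 of 11 (54.5%, interval 23.4 to 83.3%) and 72.8%. These shares count EPZ peaks inside the gene only. Mrpl57, Mrpl32 and Mrpl30 were counted as without one in both of these 5-fold ranges. Each had an EPZ peak on the same shared DMSO peak, in the neighbour, 20, 212 and 899 bases outside the gene. All marked genes were not counted by shared peak.

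**Figure D3:**
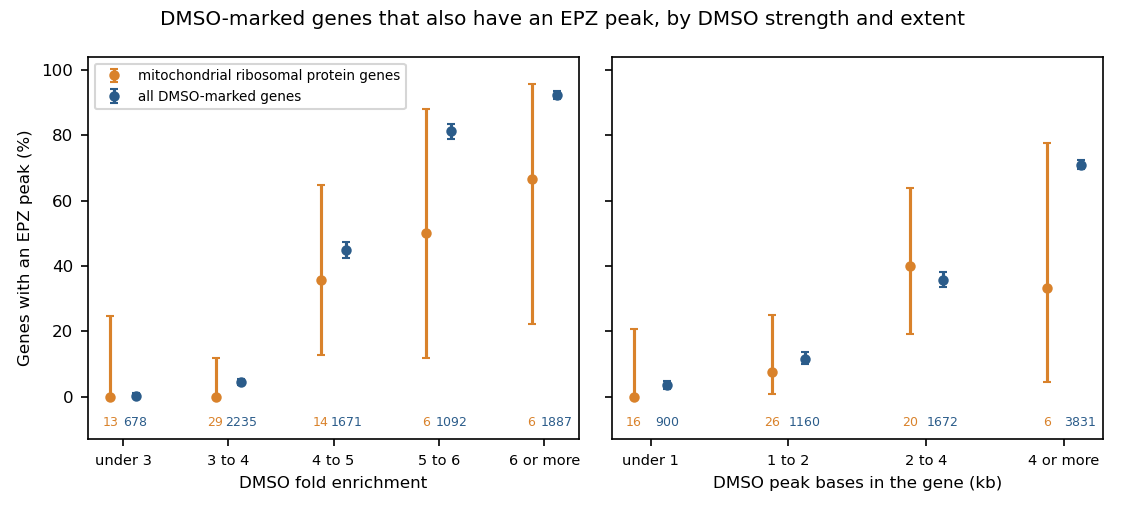
Share of DMSO-marked genes with an EPZ peak (%, exact 95% intervals) by DMSO fold enrichment (left) and by DMSO peak bases in the gene (right), for the mitochondrial ribosomal protein genes (orange) and all marked genes (blue), with the number of genes under each point. In the family the share rises from 0 of 29 at 3 to 4-fold to 4 of 6 from 6-fold, and by extent it is 40% at 2 to 4 kb, where all marked genes are at 35.8%.

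Some genes with strong DMSO peaks had no EPZ peak. Mrpl57, of the large subunit, had a 6.82-fold DMSO peak over 1951 bases and no EPZ peak in the gene. Mrpl32, whose protein matures only after cleavage by a mitochondrial inner membrane protease, had 6.0-fold over 1633 bases and none. Mrps26 (5.66-fold), Mrpl9 (5.49-fold), Mrpl30 (5.14-fold), Mrpl15 (4.94-fold), Mrpl40 (4.55-fold), Mrpl28 (4.35-fold), Mrpl50 (4.34-fold) and Mrps34 (4.32-fold) followed. In 4 of these 10 the same DMSO peak carried an EPZ peak that lay in the neighbour. The EPZ peak beside Mrpl57 was in Ska3, a kinetochore gene, 20 bases outside Mrpl57 (3.99-fold). That beside Mrpl32 was in Psma2, a proteasome subunit gene, 212 bases away (6.43-fold). Mrpl30 had one in Mitd1, 899 bases away (2.60-fold), and Mrpl40 one in the histone chaperone gene Hira, 1917 bases away (3.04-fold). Over all 56 marked genes without an EPZ peak, 6 had one within 5 kb and the median distance was 70.5 kb.

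Shared peaks bear on the strong genes. The highest DMSO peak of 20 of the 68 marked genes also overlapped another protein-coding gene (29.4%, against 23% of all marked genes), and its fold enrichment is then that of the whole shared peak. These 20 genes had a median of 4.31-fold and 5 had an EPZ peak (25%, interval 8.66 to 49.1%), against 5.12-fold and 49.2% (856 of 1739) for all marked genes with a shared peak. The 48 genes with a peak of their own had a median of 3.44-fold, and 7 had an EPZ peak (14.6%, interval 6.07 to 27.8%), against 45.2% of all marked genes with an unshared peak (2630 of 5824). Shared peaks were found at Mrpl49 with Fau, Znhit2 and Tm7sf2, where the single EPZ peak spanned Mrpl49 and all of the 1578 DMSO bases of Fau, a gene for a cytosolic ribosomal protein fused to a ubiquitin-like domain. At Mrpl18 the EPZ peak lay wholly in the chaperonin gene Tcp1, which overlaps the first part of the Mrpl18 interval, and ended 276 bases before the listed start of Mrpl18. At Mrps18b it spanned Ppp1r10, for a phosphatase regulator, which held 2171 of its bases. At Mrpl51 the shared DMSO peak held 2 EPZ peaks, one of 5.98-fold in the condensin gene Ncapd2 and the 2.85-fold one in Mrpl51. At Mrps7, whose DMSO peak also reached Gga3 and Mif4gd, the EPZ peak had 1883 bases in Gga3 and 530 in Mrps7, the gene intervals overlapping in part. A low share of a peak was inside Mrpl48, 245 bases or 5.53% of a 4.31-fold peak that otherwise lay over Rab6a. Mrpl43 shared a 3.56-fold peak with Twnk, the mitochondrial DNA helicase, Mrps12 a 2.94-fold peak with Sars2, a mitochondrial seryl-tRNA synthetase, and Mrps27 a 3.52-fold peak with Ptcd2, a mitochondrial RNA-binding protein, and these neighbours had no EPZ peak. Mrpl46 and Mrps11 shared 1 peak with each other, 4.01-fold and 1805 bases wide, of which 1109 bases were in Mrpl46 and 655 in Mrps11. The remaining shared peaks were at Mrpl27 with Eme1 (3.74-fold), Mrpl13 with Mtbp (3.31-fold), Mrpl21 with Ighmbp2 (3.09-fold), Mrps18c with Helq, and Mrps34 with Eme2, Nme3 and Mapk8ip3.

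Of 60 marked genes with a listed start, the highest DMSO peak crossed it in 29 (48.3%, against 37.9% of all marked genes) and began after it in 31 (51.7%, against 60.7%). Its downstream edge was at a median of 2030 bases after the start (quartiles 1319 and 3004), against 4405 bases. Among the 42 with a peak of their own, 11 crossed the start. The near edge was at a median of 112 bases and the far edge at 2058 bases after it. Of these 42 peaks, 38 lay wholly between 1 kb before and 5 kb after the start. With shared peaks included, 40 of the 60 lay in that window, against 2554 of 6149 over all marked genes. Unshared peaks of all genes were not counted this way. In the 12 genes with an EPZ peak, that peak crossed the start in 4 (33.3%, against 17.6% of all genes with both peaks). It began after the start in 7 (58.3%, against 81.1%) and ended before it in 1, Mrpl18. Where the DMSO peak was unshared, the EPZ peak crossed the start in 1 of 7 genes and began after it in 6. Over the 12 genes the EPZ peak ran from a median of 262 to a median of 1367 bases after the start, against 370 and 3151.

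**Figure D4:**
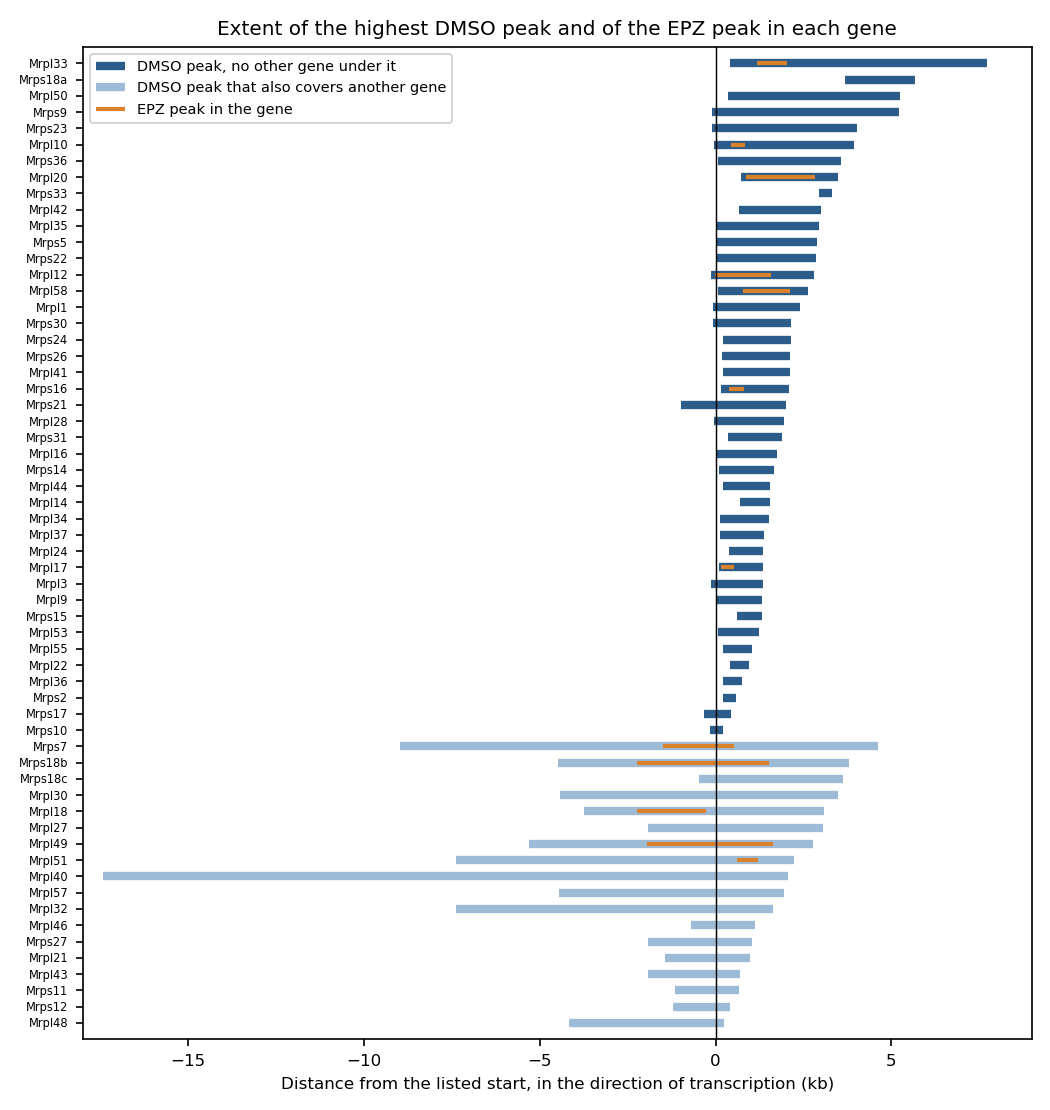
Extent of the highest DMSO peak in each of the 60 marked genes with a listed start, in kb from that start in the direction of transcription, dark blue where the peak covers no other gene, light blue where it does, and orange for the EPZ peak. Unshared peaks mostly end within 5 kb after the start, Mrpl33 reaching farthest at 7731 bases, and the shared peaks extend to the left into the neighbour, farthest at Mrpl40 (17429 bases, into Hira).

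Of the 69 genes with a listed start, 23 (33.3%, interval 22.4 to 45.7%) had another protein-coding gene starting within 1 kb on the opposite strand, against 7.95% of all protein-coding genes and 15.4% of all marked ones. Genes of the respiratory chain and ATP synthase had such a partner in 29.5% (23 of 78) and cytosolic ribosomal protein genes in 13.4% (9 of 67). Of the marked genes, 21 were in such pairs and 5 of them had an EPZ peak (23.8%), against 40% of all marked genes in such pairs (378 of 944). The other 39 were single and 7 of them had one (17.9%), against 47.1% (2453 of 5205). The gap between the starts was 41 bases at Mrpl46 and Mrps11, 75 at Mrpl57 and Ska3, 191 at Mrpl49 and Fau and 204 at Mrpl32 and Psma2.

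The 300 bases around each start (250 before, 50 after) were searched on both strands for 8 short motifs written out here. CGCATGCG (NRF1) was in 7 of 69 promoters of the family (10.1%), against 2.55% of all promoters and 4.86% of those of marked genes. The 7 genes were Mrpl9, Mrpl10, Mrpl17, Mrpl22, Mrpl32, Mrpl39 and Mrps18b. Of these, Mrpl10, Mrpl17 and Mrps18b had an EPZ peak and Mrpl39 had no DMSO peak. Over all marked genes with an EPZ peak, 5.16% of promoters held CGCATGCG. Mrpl32 had the motif at 86 and at 23 bases before its start, both between it and Psma2, as the sequence shows, and Mrpl17 at 10 bases before its start. CCGGAAG (ETS family) was in 24 (34.8%, against 11.9% and 23.5%). It was in 6 of 12 genes with an EPZ peak, among them Mrpl18, Mrpl33, Mrpl51 and Mrpl58. Over all marked genes with an EPZ peak its share was 22%, near the 23.5% of all marked genes. It was also in 17 of 48 marked genes without an EPZ peak and in 1 of 9 genes without a DMSO peak. AAGATGGC (YY1) was in 12 (17.4%, against 3.21% and 6.07%). Of these 12 genes, 2 had an EPZ peak and 10 were marked without one. The 2 were Mrpl49, with the motif 16 bases after the start, and Mrps7, with it 18 bases after. Over all marked genes with an EPZ peak, 5.72% of promoters held AAGATGGC. CTCGCGAG was in 2 (2.9%, against 1.31% and 2.67%), Mrpl57 and Mrps7. GGGCGG (Sp1 family) was in 49.3%, against 46.3% and 66.5%. CACGTG (E-box) was in 7.25%, against 7.91% and 10.5%, CCAAT in 39.1%, against 39.2% and 39.5%, and TATAAA in 5.8%, against 13.3% and 6.41%. The median GC content of the windows was 58.3%, against 56.3% and 61.3%. The stretch upstream of Mrpl12 held none of the NRF1, ETS or YY1 letters, though its gene had the strongest DMSO peak. A match is a run of letters and no measure of binding.

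Other genes of mitochondrial translation, transcription and RNA handling made up 5 lists of 67 genes. They were marked in 46 cases (68.7%), with a median of 4.02-fold, and 13 of the 46 had an EPZ peak (28.3%, interval 16 to 43.5%). No gene of these lists had an SGC peak. The 5 mitoribosome proteins with other symbols were all marked, from Dap3, a GTP-binding small subunit protein, at 4.70-fold to Gadd45gip1 at 5.72-fold, and Gadd45gip1, Aurkaip1 (5.48-fold) and Ptcd3 (4.93-fold) had EPZ peaks. EPZ bases reached 94.1% of the DMSO bases in Aurkaip1. Of 11 translation factors 8 were marked, from the recycling factor Mrrf at 2.81-fold to the elongation factor Tufm at 5.68-fold. Tufm and the release factor Mtrf1l (5.44-fold) had EPZ peaks, and Tsfm, Mtrf1 and Guf1 had no DMSO peak. Of 22 assembly factors 12 were marked, from the pseudouridine synthase Rpusd4 at 3.20-fold to the GTPase Noa1 at 4.85-fold, and Noa1 alone had an EPZ peak. Those without a DMSO peak were Eral1, Fastkd2, Gtpbp10, Mrm1, Mrm2, Mterf4, Mtg1, Mtg2, Nsun4 and Tfb1m.

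Of 17 mitochondrial aminoacyl-tRNA synthetase genes 12 were marked, the lowest Lars2 at 2.77-fold. Mars2 (5.22-fold) and Yars2 (3.59-fold) were among those with EPZ peaks, and Aars2, Ears2, Fars2, Nars2 and Wars2 had no DMSO peak. Of 12 genes of mitochondrial transcription and RNA handling 9 were marked, from Mterf1a at 2.93-fold to Trmt10c, a subunit of mitochondrial RNase P, at 7.81-fold. Trmt10c, Slirp (6.62-fold), Tfam (5.61-fold), the packaging factor of mitochondrial DNA, and Lrpprc (4.49-fold) had EPZ peaks, and the polymerase gene Polrmt, Prorp and Hsd17b10 had no DMSO peak. In these lists too, EPZ peaks went with stronger DMSO peaks: 12 of 24 genes at or above 4-fold (50%) had one and 1 of 22 below it (4.55%), namely Yars2.

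Cytosolic ribosomal protein genes, chosen by symbol with their paralogues, were marked in 78 of 87 cases (89.7%), with a median of 7.28-fold, and 75 of the 78 had an EPZ peak (96.2%, interval 89.2 to 99.2%). Respiratory chain and ATP synthase genes, assembly factors included, were marked in 82 of 96 cases (85.4%), with a median of 4.64-fold and 2864 DMSO bases, and 36 of the 82 had an EPZ peak (43.9%, interval 33 to 55.3%). The EPZ interval of the mitochondrial ribosomal protein genes, 9.47 to 28.8%, lies below both, and it overlaps that of the 5 related lists of mitochondrial translation, transcription and RNA handling. At or above 4-fold with 1000 to 4000 DMSO bases the shares were 10 of 21 in the family, 17 of 34 (50%) in the respiratory chain list and 64 of 64 in the cytosolic ribosomal list (interval 94.4 to 100%). The interval of the cytosolic ribosomal genes lay above the shares of the other 2 lists there, and the differences were not tested. The range did not hold strength alike. At 5-fold or more were 59 of the 64 cytosolic ribosomal genes, against 11 of 21 in the family and 21 of 34 in the respiratory chain list. No gene of either list had an SGC peak.

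**Figure D5:**
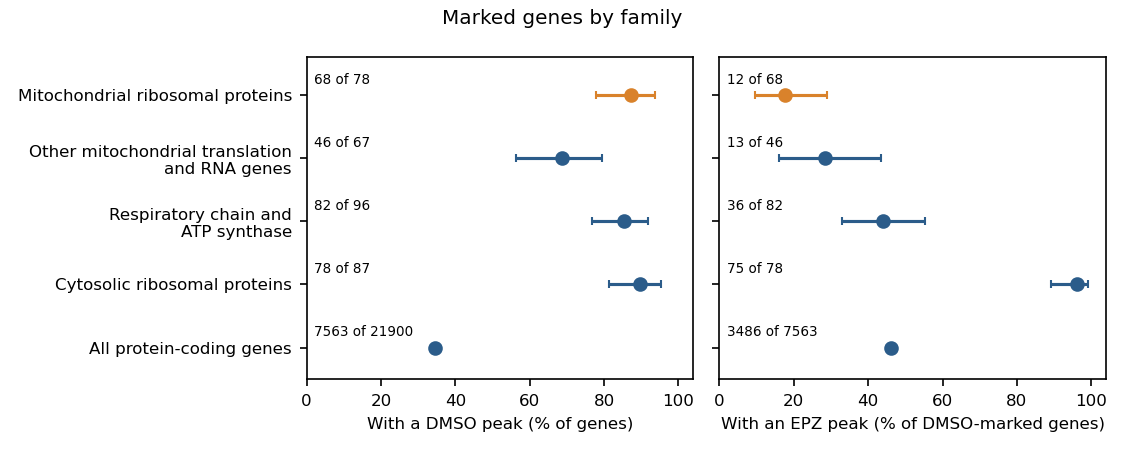
Share of genes with a DMSO peak (left) and share of DMSO-marked genes with an EPZ peak (right), in %, with exact 95% intervals, for the mitochondrial ribosomal protein genes (orange), 3 other groups and all protein-coding genes (blue). The families lie close together on the left at 85.4 to 89.7%, apart from the other mitochondrial translation and RNA genes at 68.7%, and far apart on the right, from 17.6 to 96.2%.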

How the data were processed

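H3K79me2 ChIP-seq peaks of CD8 T cells were read from 3 lists deposited by the authors, 1 per treatment. Per the submitters' processing notes the tools were MACS2 2.2.7.1, BWA 0.7.17-r1188 and Picard, and the builds were sacCer3 and mm10 (GRCm38). The pooling of replicates, the role of inputs and yeast reads, and the calling thresholds: not given in the sources used here. Fold enrichment is the ratio to background that the authors deposited per peak, as a mean along it, and was compared only inside its list. Of the authors' −log10 values the q was used as a filter and the p was not used. The deposited score is the same q value times 10 without decimals (1 EPZ peak differs) and was not used.

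Gene intervals came from RefSeq (GRCm38.p6), and strands and starts from a RefSeq promoter table that lists 17492 protein-coding genes. Where a gene had several starts, the one nearest its 5′ end was used. It holds no entry for Mrpl4, Mrpl13, Mrpl15, Mrpl19, Mrpl38, Mrpl54, Mrps28, Mrps34 and Mrps35. A gene counted as marked from 1 base of overlap with a DMSO peak, and its fold is that of its highest peak. Head-to-head starts lay within 1 kb of each other, with up to 200 bases of overlap. Intervals are exact (Clopper-Pearson, 95%). The overlap code was tested on simulated data (Python 3.11.15, pandas 2.3.3, numpy 2.4.6, scipy 1.17.1, matplotlib 3.10.9).

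The genes, lists and alternatives were chosen with earlier results of these data known. Named were genes without a DMSO peak, the 10 highest with and without an EPZ peak, the 5 with most DMSO bases, the 5 highest and lowest by EPZ share of DMSO bases, the 5 lowest by fold, the Mrps18 paralogues, neighbours under shared peaks and, in related lists, the highest, the lowest and the unmarked genes, except that 1 gene's values are not reported here. Genes with both peaks and several others were named besides, after their values were seen. The 8 alternatives were peaks of −log10 q of at least 5, peaks of at least 4-fold, at least 500 bases of overlap, each peak given to 1 gene, intervals extended by 1 kb, a window from 1 kb before to 2 kb after the start, EPZ peaks over at least 50% of the DMSO bases, and unshared peaks only.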

Additional observations from a re-analysis of the deposited data

How the results depend on the processing

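No paired analysis was possible because each treatment has 1 list, which carries no replicate numbers, and for the same reason no replicate could be left out. Of 83 alternative values of the main counts and medians, 55 stayed within the tolerance and 28 moved, the tolerance being 1.5 times for a count and the 95% interval of the median for a median (3.4 to 4.01-fold, and 13.6 to 56.6% of the DMSO bases). The latter is wide: with a −log10 q of at least 5 the share of DMSO bases was 48.3% over 4 genes, against 29.6% over 12. No gene of the family had an SGC peak with intervals extended by 1 kb or in the window around the start. The other alternatives can only remove peaks or genes, so for SGC their count of 0 was fixed by the main count. These SGC counts are among the values that stayed within the tolerance. Peaks with a −log10 q of at least 5 gave 17 marked genes (14 large, 3 small), 4 with an EPZ peak (3 large, 1 small), a DMSO median of 5.49-fold, and in the 5 related lists 17 marked and 3 with an EPZ peak. Peaks of at least 4-fold gave 26 marked (20 large, 6 small), 4 with an EPZ peak (3 large, 1 small), a median of 4.91-fold, and 24 and 3 in the related lists. Both filters were applied to the EPZ list as well as the DMSO list, and both remove weak peaks by construction. Of the 26 genes with a DMSO peak of at least 4-fold, 12 had an EPZ peak of any fold. Requiring EPZ peaks over at least 50% of the DMSO bases left 3 genes (3 large, 0 small), with a median of 58.4% of the DMSO bases, and 4 in the related lists. Unshared peaks alone gave 7 genes with an EPZ peak (1 small), and in the related lists 26 marked and 8 with an EPZ peak. Giving each peak to 1 gene left 1 small subunit gene with an EPZ peak. The family's EPZ share was below that of all marked genes under these settings too: 23.5% against 44.1%, 15.4% against 39%, 4.41% against 14.5% and 14.6% against 45.2%. Depth is unknown, so a weak domain and an absent one cannot be told apart where no peak was called.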
